A study of Mus musculus with 4 samples.

Results

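The chromatin around the 3 genes of the PGC-1 coactivator family, Ppargc1a (called Pgc1a in the study), Ppargc1b (Pgc1b) and Pprc1, was examined by ATAC-seq in cultured mouse preadipocytes before and after beige differentiation. All peaks whose summit lay within 350 kb of the transcription start site (TSS) of Ppargc1a, or within 100 kb of the TSS of Ppargc1b or Pprc1, were taken from the 4 deposited peak lists. Peaks of different lists that overlapped were joined into 1 site, which gave 72 sites, 23 at Ppargc1a, 32 at Ppargc1b and 17 at Pprc1, of 100608 sites on the assembled chromosomes. A site is called open in a library that has a peak there. It is called opened where both D8 libraries and neither D0 library had a peak, closed where both D0 libraries and neither D8 library had one, and kept where all 4 had one. The cells were im-scWAT, stromal vascular cells from the subcutaneous white adipose tissue of 5-week-old mice, immortalised with SV40 large T antigen and selected with puromycin, so each genotype is represented by 1 cultured line. WT cells were Jmjd1a +/+. HY cells were Jmjd1a HY/HY, in which both alleles carry tyrosine for a catalytic histidine of JMJD1A, so that the H3K9 demethylase activity is lost. D0 cells were harvested before differentiation. D8 cells had been grown to confluence, induced for 2 days with indomethacin, dexamethasone, 3-isobutyl-1-methylxanthine, rosiglitazone, insulin and T3, and kept for 6 more days in insulin, T3 and rosiglitazone, in both genotypes alike. Each of the 4 groups had 1 library and no replicate, so every difference given here is between those libraries, and intervals cover counting error only.

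PGC-1 proteins do not bind DNA themselves. They are recruited by transcription factors such as nuclear receptors, estrogen-related receptors and nuclear respiratory factors, and they bring histone acetyltransferases and the Mediator complex to the genes those factors occupy. PGC-1α, encoded by Ppargc1a, is induced through cAMP signalling by cold and exercise and drives mitochondrial biogenesis and thermogenesis. PGC-1β, encoded by Ppargc1b, maintains mitochondrial and lipid oxidation genes, and PRC, encoded by Pprc1, acts on nuclear respiratory factor targets in growing cells.

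The WT lists held 71523 peaks at D0 and 41228 at D8, and the HY lists 77994 and 48964. The background rate, the tag pileup that the caller assigned to an average position, was 0.659 and 0.531 tags in WT and 0.708 and 0.494 in HY. The D8 to D0 ratio of these rates, 0.806 (WT) and 0.698 (HY), was taken as the ratio of depth. It equals that only if the caller treated tags alike in all libraries. A site standing on that background needed a summit pileup of at least 5 tags to be called, or 4 in HY D8. Chromosome Y held 1 peak in each WT library and 7 and 6 in the HY libraries, and its part in any difference between the genotypes was not tested. Promoters of adipocyte marker genes were open for 2 of 8 genes in each D0 library and 7 of 8 in each D8 library, all but Lep. Of 6 preadipocyte markers, 5 promoters in WT D0, 4 in HY D0 and 2 in each D8 library were open. No promoter of 3 macrophage or 3 muscle markers was open in any library, and endothelial markers had 3 of 4 open promoters in WT D0, 2 in HY D0, 0 in WT D8 and 1 in HY D8. The part of the endothelial markers in the results below was not tested. Of 6 beige markers, a list that includes Ppargc1a itself, 2 promoters were open in WT D0, 3 in HY D0 and 4 at D8 in either genotype, and Ucp1 and Dio2 had no promoter peak in any library.

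The sequences on which the Ppargc1a results turn are shown first, on mm9 and 5′ to 3′ on the strand of the gene. Promoters are the 200 bases before the TSS or, where another start is annotated within 100 bp upstream of it, before that start, which for Pprc1 is at 46131029. Sites are the strongest summit with 100 bases on each side. Capitals mark every match, on either strand, to the letters searched. These were TGACGTCA, the cAMP response element (CRE) bound by CREB and ATF factors, AGGTCA, the hexamer of nuclear receptors, TTGCNNAA for C/EBP factors, CCCNNGGG for EBF factors and TGANTCA for AP-1. Also searched were CCGGAAG for ETS factors and TCAAGGTCA for estrogen-related receptors, which contains that hexamer. The remaining searches were the NRF1 and NFI palindromes and DR1, a pair of hexamers 1 base apart, each of which also counts as a hexamer. Sequence at Ppargc1b is described here by position and values.

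Ppargc1a promoter (chr5:51945161-51945360, minus strand): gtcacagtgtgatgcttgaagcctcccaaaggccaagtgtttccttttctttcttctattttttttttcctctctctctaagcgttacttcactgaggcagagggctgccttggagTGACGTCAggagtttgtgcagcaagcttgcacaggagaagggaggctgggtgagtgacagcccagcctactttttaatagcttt
Ppargc1a site at -314.5 kb (chr5:52259551-52259751, minus strand): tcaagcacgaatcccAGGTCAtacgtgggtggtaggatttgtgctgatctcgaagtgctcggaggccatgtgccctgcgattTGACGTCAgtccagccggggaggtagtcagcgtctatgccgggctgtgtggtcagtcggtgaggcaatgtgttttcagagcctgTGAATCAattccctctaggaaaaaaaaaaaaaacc
Ppargc1a site at -295.7 kb (chr5:52240712-52240912, minus strand): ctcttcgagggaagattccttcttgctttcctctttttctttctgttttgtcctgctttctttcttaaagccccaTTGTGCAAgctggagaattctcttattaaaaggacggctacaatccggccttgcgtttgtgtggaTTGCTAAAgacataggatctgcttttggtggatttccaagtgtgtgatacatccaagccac
Ppargc1a site at -272.5 kb (chr5:52217603-52217803, minus strand): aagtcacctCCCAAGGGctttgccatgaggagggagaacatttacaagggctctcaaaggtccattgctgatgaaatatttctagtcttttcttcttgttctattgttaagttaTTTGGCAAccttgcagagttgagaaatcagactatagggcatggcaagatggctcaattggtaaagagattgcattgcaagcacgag
Ppargc1a site at -41.9 kb (chr5:51987005-51987205, minus strand): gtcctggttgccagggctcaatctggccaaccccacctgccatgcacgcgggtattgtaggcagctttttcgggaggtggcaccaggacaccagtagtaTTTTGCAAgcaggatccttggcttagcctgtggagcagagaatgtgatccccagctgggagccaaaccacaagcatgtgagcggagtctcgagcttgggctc
Pprc1 promoter (chr19:46130829-46131028, plus strand): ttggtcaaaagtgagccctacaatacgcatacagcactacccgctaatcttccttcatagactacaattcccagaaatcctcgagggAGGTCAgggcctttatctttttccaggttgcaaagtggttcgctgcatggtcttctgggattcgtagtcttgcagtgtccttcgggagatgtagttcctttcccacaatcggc

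The Ppargc1a promoter held 1 full CRE, at positions -84 to -77 before the start. A CRE was present in 1.81% of 22359 mouse promoters of the same length. A full CRE also lay in the opened site at -314.5 kb, between a receptor hexamer and an AP-1 match, and C/EBP matches lay in the sites at -295.7, -272.5 and -41.9 kb. The opened sites at Ppargc1a -271.9 kb and Pprc1 +53.9 kb, which are not printed, held no match to any of the letters.

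At Ppargc1a, on the minus strand of chromosome 5 with its main TSS at 51945160, the promoter had no peak at D0 and a peak at D8 in both genotypes. The promoter summit, at -17 bp, had a pileup of 14 tags in WT D8 (exact Poisson 95% interval 7.65 to 23.5) and 15 tags in HY D8, and no peak was called in either D0 library. Transcripts starting 13.8 kb further upstream had no peak at their start in any library. A separate intronic site at +0.9 kb was open throughout, with 14 tags at D0 and 11 at D8 in WT, and 21 at D0 and 15 at D8 in HY. With a promoter window of 2000 bp before to 1000 bp after the start, which takes in that site, the Ppargc1a promoter was open at D0 in both genotypes as well.

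Upstream of Ppargc1a 4 distal intergenic sites opened together with the promoter. The site at -314.5 kb had 14 tags at D8 in WT and 12 in HY. The site at -295.7 kb had 15 and 7 tags, and the neighbouring sites at -272.5 and -271.9 kb had 9 and 7 tags in WT D8 and 10 and 13 in HY D8. None of these sites was called at D0 in either genotype, although the D0 libraries were the deeper ones by background rate. All 5 opened sites lay upstream of the main start. The count was 3 when only peaks with -log10 q of at least 5 were used, and also when an overlap of 50% was required. Of the 5 sites that closed in both genotypes, 4 lay downstream, at +8.6, +36.0, +312.6 and +341.5 kb, and 1 upstream at -212.3 kb. Their D0 pileups were low, from 5 to 14 tags in WT and from 9 to 16 in HY. Intergenic positions made up 15 of the 23 sites and introns of Ppargc1a the other 8.

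The strongest Ppargc1a site in every library but WT D0 was the intergenic element at -41.9 kb, which was open in all 4 libraries. It had 13 tags at D0 and 27 at D8 in WT, and 26 at D0 and 38 at D8 in HY. After scaling for depth it was 2.58 times higher at D8 than at D0 in WT (95% interval 1.29 to 5.44, exact conditional binomial) and 2.09 times higher in HY (1.24 to 3.59). The local background around it rose as well, from 0.659 to 1.296 tags in WT and from 0.846 to 1.98 in HY. The deposited fold of the summit over local background adds a tag to both, which weighs where background is low. It was 8.44 and 12.2 in WT and 14.6 and 13.1 in HY. On that scale HY fell slightly, to 0.895 times its D0 value.

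**Figure D1:**
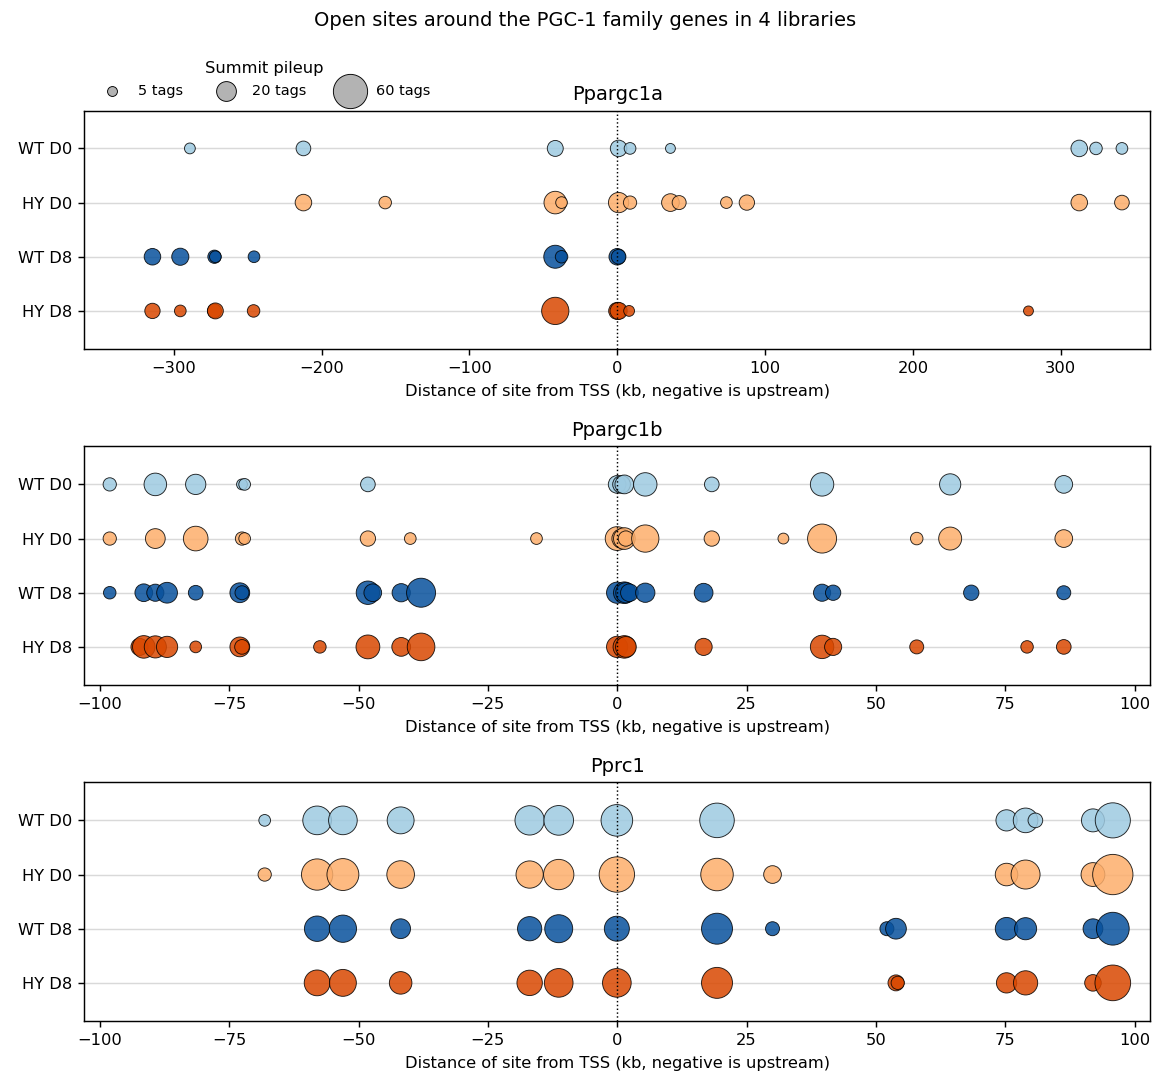
Sites around Ppargc1a, Ppargc1b and Pprc1 by distance from the TSS (kb, in the direction of the gene), with 1 row per library and point area in proportion to the summit pileup in tags. At D8 most Ppargc1a sites lie upstream of the TSS, and the large Pprc1 sites recur in all 4 libraries. Ppargc1b has more sites at D8 than at D0 upstream in both genotypes, but downstream in WT alone.

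Ppargc1b, on the minus strand of chromosome 18 with its TSS at 61560054, had more peaks at D8 than at D0 in both genotypes. Its window held 16 peaks at D0 and 22 at D8 in WT, and 19 at D0 and 23 at D8 in HY, although the D8 lists were the shorter ones. Among peaks with -log10 q of at least 5 the counts were 12 and 12 in WT, with no gain, and 13 and 17 in HY, while the Pprc1 window, of the same size, held 11 and 16 in WT and 14 and 14 in HY. Per Mb this was 80, 110, 95 and 115 peaks, against 26.9, 15.5, 29.3 and 18.4 over the genome. The Ppargc1a window had 14.3, 14.3, 17.1 and 14.3 peaks per Mb, below the genome in every library, and the Pprc1 window 65, 85, 70 and 80. No other protein-coding start lay in the Ppargc1a or Ppargc1b window.

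The promoter of Ppargc1b was open in all 4 libraries, with 16 tags at D0 and 23 at D8 in WT, and 29 at D0 and 23 at D8 in HY. The D8 to D0 ratio was 1.78 in WT (0.903 to 3.61) and 1.14 in HY (0.628 to 2.03), and both intervals included 1. Unlike the Ppargc1a promoter, with 48% GC and 2 CpG, the 200 bases before the more upstream of the neighbouring Ppargc1b starts were 74.5% GC with 22 CpG. The Pprc1 promoter had 48.5% GC and 7 CpG, and the median of all promoters was 55.5% and 7.

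Of the 32 Ppargc1b sites, 7 opened in both genotypes, 5 of them intergenic and upstream and 2 in introns. The strongest was the site at -37.9 kb, with 43 tags at D8 in WT, 39 in HY and no peak at D0. The sites at -91.5, -87.0, -72.97 and -41.8 kb had 16, 22, 20 and 17 tags in WT D8 and 26, 23, 20 and 18 in HY D8. The intronic sites at +16.7 and +41.7 kb had 18 and 12 tags in WT D8 and 15 tags each in HY D8. The HY to WT ratio at D8 over these 7 ran from 0.895 to 1.75, and every interval included 1. Only 0.620% of 22085 protein-coding genes had as many opened sites within 100 kb of their TSS, whereas 22.0% of genes had as many within 350 kb as the 5 of Ppargc1a.

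Among the 8 Ppargc1b sites open in all 4 libraries, the one at -48.2 kb had the highest D8 to D0 ratio in both genotypes. It had 11 tags at D0 and 28 at D8 in WT, and 12 at D0 and 29 at D8 in HY, a ratio of 3.16 in WT (1.52 to 7.03) and 3.46 in HY (1.71 to 7.45). The site at -81.5 kb went the other way, from 21 to 11 tags in WT, a ratio of 0.650 (0.283 to 1.41), and from 31 to 7 tags in HY, a ratio of 0.323 (0.120 to 0.748). The intronic site at +39.6 kb, with 28, 15, 43 and 28 tags in WT D0, WT D8, HY D0 and HY D8, had D8 to D0 intervals that included 1 in both genotypes. The 4 sites that closed in both genotypes were at -72.0, +0.8, +18.3 and +64.4 kb. The last of these was the tallest, with 23 tags in WT D0 and 27 in HY D0.

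Local background rose over much of the Ppargc1b window with differentiation. At the promoter it went from 2.22 to 4.33 tags in WT and from 2.63 to 4.04 in HY, and at -48.2 kb from 0.659 to 2.02 and from 0.708 to 1.64. Scaled for depth, the D8 to D0 ratio of local background over the 8 sites open in all libraries had a median of 2.27 in WT and 2.00 in HY, above 1 at 8 and 7 of them. At the 2 such Ppargc1a sites, -41.9 and +0.9 kb, the medians were 2.01 and 2.62, above 1 at both. Over the 11 such Pprc1 sites the medians were 0.970 and 0.869, and over all 24369 such sites 0.898 and 0.907. This comparison was chosen after the values were seen. Where the D0 background lay at the lowest value of its list, the scaled ratio cannot fall below 1. That held at Ppargc1b -72.5 and -48.2 kb in both genotypes and at Ppargc1a -41.9 kb in WT. Peaks were called in each library alone, so local background came from the same tags as the peaks. The part of neighbouring peaks in it was not tested. The deposited fold adds a tag to both the summit and the background. Against the raised background the -48.2 kb site was 1.33 times (WT) and 1.49 times (HY) its D0 fold, and the promoter 0.854 and 0.576 times. On the same scale the site at -81.5 kb was at 0.460 and 0.476 times its D0 fold, and that at -89.3 kb at 0.312 and 0.671 times. Without the added tag the -48.2 kb site in WT would be lower at D8 than at D0.

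**Figure D2:**
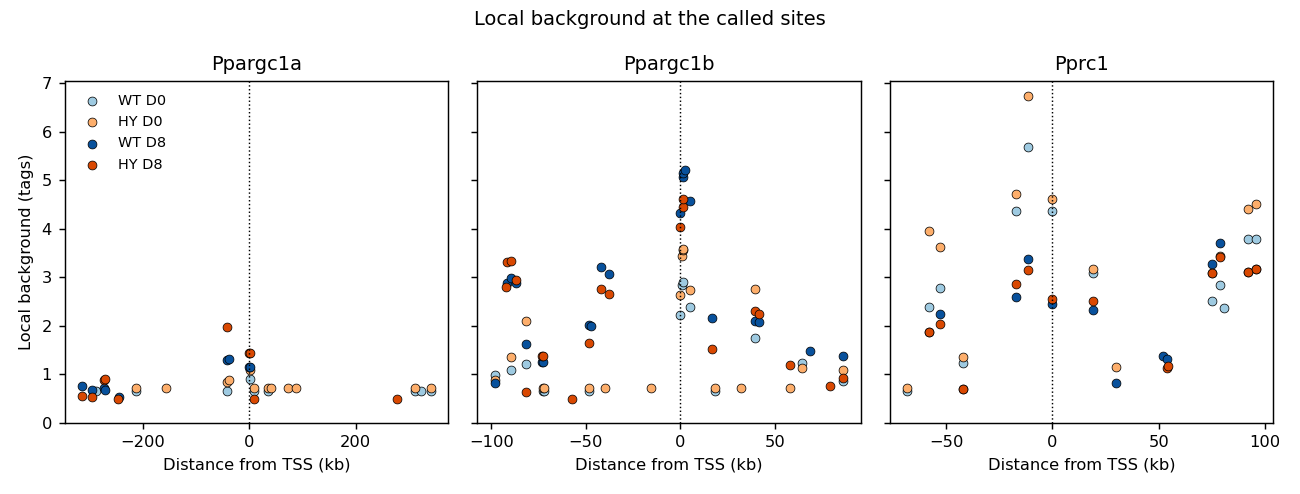
Local background in tags at each called site, by distance from the TSS (kb), coloured by library, for Ppargc1a, Ppargc1b and Pprc1. At Ppargc1b the D8 points lie above the D0 points around the promoter and at -89.3, -72.5 and -48.2 kb, but at -81.5 kb the HY D0 point is the highest, and at Pprc1 the D0 points are the higher ones near the TSS.

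Pprc1, on the plus strand of chromosome 19 with its TSS at 46131074, lies in a gene-dense window with 7 other protein-coding starts. Its own promoter was open in all 4 libraries, with 51 tags at D0 and 32 at D8 in WT, and 64 at D0 and 42 at D8 in HY. The depth-scaled D8 to D0 ratio was 0.779 in WT (0.484 to 1.24) and 0.940 in HY (0.621 to 1.41), and both intervals included 1. In all, 11 of the 17 sites were open in every library, and 9 of these 11 were promoter sites, among them those of Hps6, Ldb1, Nolc1, Pitx3 and Gbf1. The tallest, at +95.8 kb by the start of Gbf1, had 63, 55, 83 and 65 tags in WT D0, WT D8, HY D0 and HY D8. No D8 to D0 interval at the 11 sites left 1 out, and the ratios lay between 0.671 and 1.40 in WT and between 0.691 and 1.299 in HY.

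The single Pprc1 site that opened in both genotypes was intergenic, at +53.9 kb, with 22 tags in WT D8 and 13 in HY D8. The single site that closed in both was at -68.2 kb, with 7 and 9 tags at D0. Elovl3, which encodes an elongase of very long chain fatty acids and is a beige marker, lies in the same window. Its promoter site at +75.3 kb had 23 tags at D0 and 26 at D8 in WT, and 26 at D0 and 21 at D8 in HY, with D8 to D0 ratios of 1.40 (0.770 to 2.57) and 1.16 (0.619 to 2.14). Local background at that site was 2.50 and 3.28 tags in WT and 3.09 and 3.10 in HY, which scaled for depth was 1.63 and 1.44 times higher at D8.

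Sites were counted by class beside all sites of the genome. Sites open at D8 and not at D0 in both genotypes were 13 of 72 (18.1%), with 5.99% over all sites. Sites open at D0 and not at D8 in both genotypes were 10 of 72 (13.9%), with 24.6% over all sites. Sites open in all 4 libraries were 21 of 72 (29.2%), with 24.2% over all sites, and 11 of the 21 were at Pprc1. The opened share was 21.7% at Ppargc1a, 21.9% at Ppargc1b and 5.88% at Pprc1, where 1 site had opened. The closed share was 21.7%, 12.5% and 5.88% in the same order, from 5, 4 and 1 sites, and the share open in all 4 libraries 8.70%, 25% and 64.7%. These are shares in single libraries of neighbouring sites, and no test was made.

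**Figure D3:**
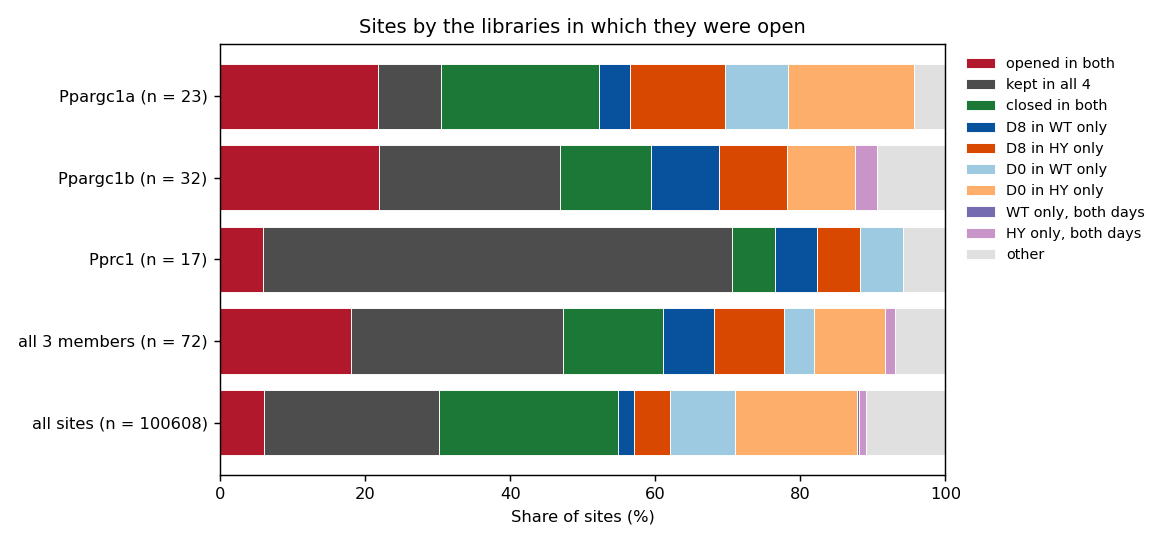
Share of sites (%) by the libraries in which a peak was called, for each gene, the 3 genes together and all sites. The opened share is the red block at the left, 21.7% and 21.9% at Ppargc1a and Ppargc1b against 5.99% over all sites, and the dark grey block of sites open in all 4 libraries fills 64.7% at Pprc1.

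Summit heights at sites open on both days were compared in each genotype. In WT, 3 of 23 such sites were at least 2 times higher at D8 than at D0, with 4.78% of 27347 over all sites, and 0 of 23 were at most 0.5 times, with 14.7% over all sites. In HY, 3 of 23 were at least 2 times higher, with 5.27% of 32949 over all sites, and 1 of 23, Ppargc1b -81.5 kb, was at most 0.5 times, with 17.2% over all sites. The sites at -41.9 kb of Ppargc1a and -48.2 kb of Ppargc1b passed in both genotypes, Ppargc1b -72.5 kb passed in WT alone (2.07, interval 0.681 to 6.93), and Ppargc1b +1.7 kb, which had no WT D0 peak, passed in HY (2.63, interval 1.24 to 5.82). On the fold over local background, 0 of 23 sites were at least 2 times higher in either genotype, and 4 in WT and 1 in HY, all at Ppargc1b, were at most 0.5 times. The share over all sites was not counted on that scale.

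**Figure D4:**
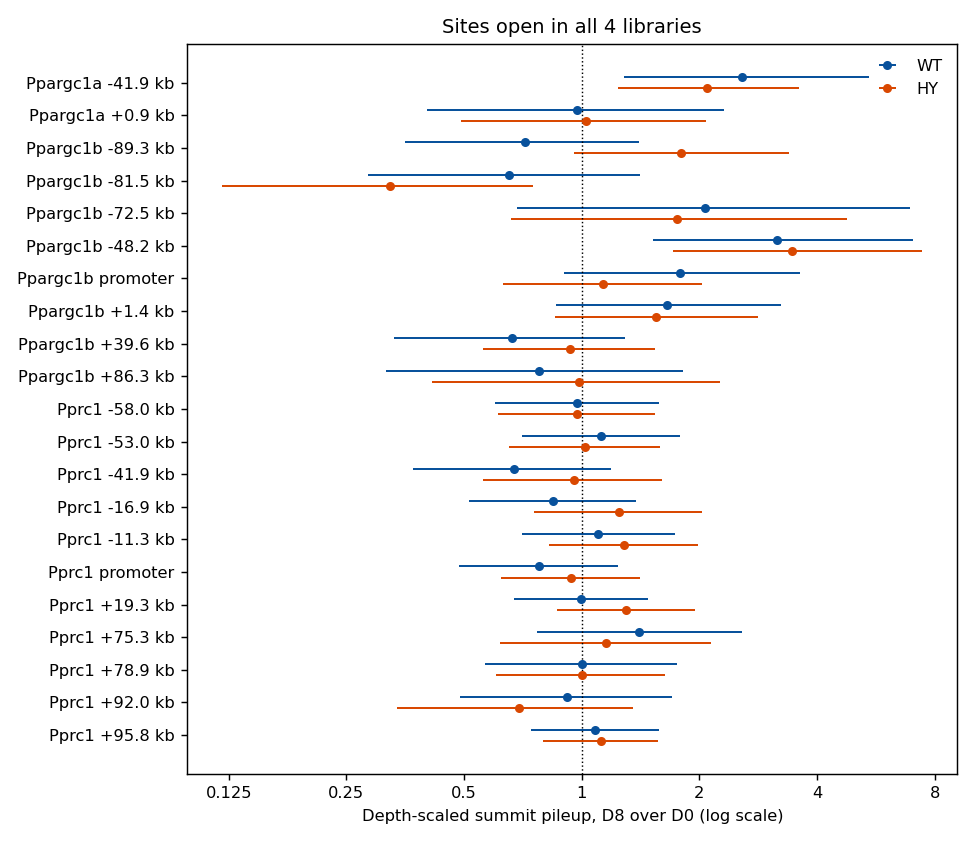
Ratio of the depth-scaled summit pileup at D8 to that at D0 (log axis) in WT (blue) and HY (orange) at the 21 sites open in all 4 libraries, with exact conditional binomial 95% intervals. In both genotypes the intervals of Ppargc1a -41.9 kb and Ppargc1b -48.2 kb lie above 1, that of Ppargc1b -81.5 kb lies below 1 in HY, and the Pprc1 intervals all include 1.

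The comparison of genotypes addressed whether loss of JMJD1A demethylase activity altered accessibility of these genes. Of the sites called at D8, 7 at Ppargc1a, 16 at Ppargc1b and 12 at Pprc1 were called in both genotypes, and 2, 5 and 2 in WT but not HY, and 3, 4 and 1 in HY but not WT. Shares over all sites were counted only for the narrower classes given below, open in neither library of the other genotype. Among the 35 shared sites the HY to WT ratio of summit pileup ran from 0.501 at Ppargc1a -295.7 kb (0.173 to 1.31) to 2.01 at Ppargc1b +39.6 kb (1.04 to 4.04). The latter was the only site of 35 at least 2 times higher in HY, with 1.68% of 32039 over all sites, and 0 were at most 0.5 times, with 0.512% over all sites. Both values lay at the limit. Ppargc1b +39.6 kb was 1.87 without depth scaling, 1.69 on the fold over local background and 1.81 with the median ratio set to 1, which leaves 0 sites at least 2 times higher, and Ppargc1a -295.7 kb was 0.467, 0.544 and 0.453 in the same order, past 0.5 in 2 of these settings. The median ratio was 1.14 over the family and 1.11 over all shared sites, so the family lay near the general offset between these libraries. The Ppargc1a promoter ratio was 1.15 (0.518 to 2.57) and that of Ppargc1b -37.9 kb, the tallest opened site, 0.974 (0.615 to 1.54). At 21 of the 35 sites the interval held both a 1.5 times higher and a 1.5 times lower value in HY.

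**Figure D5:**
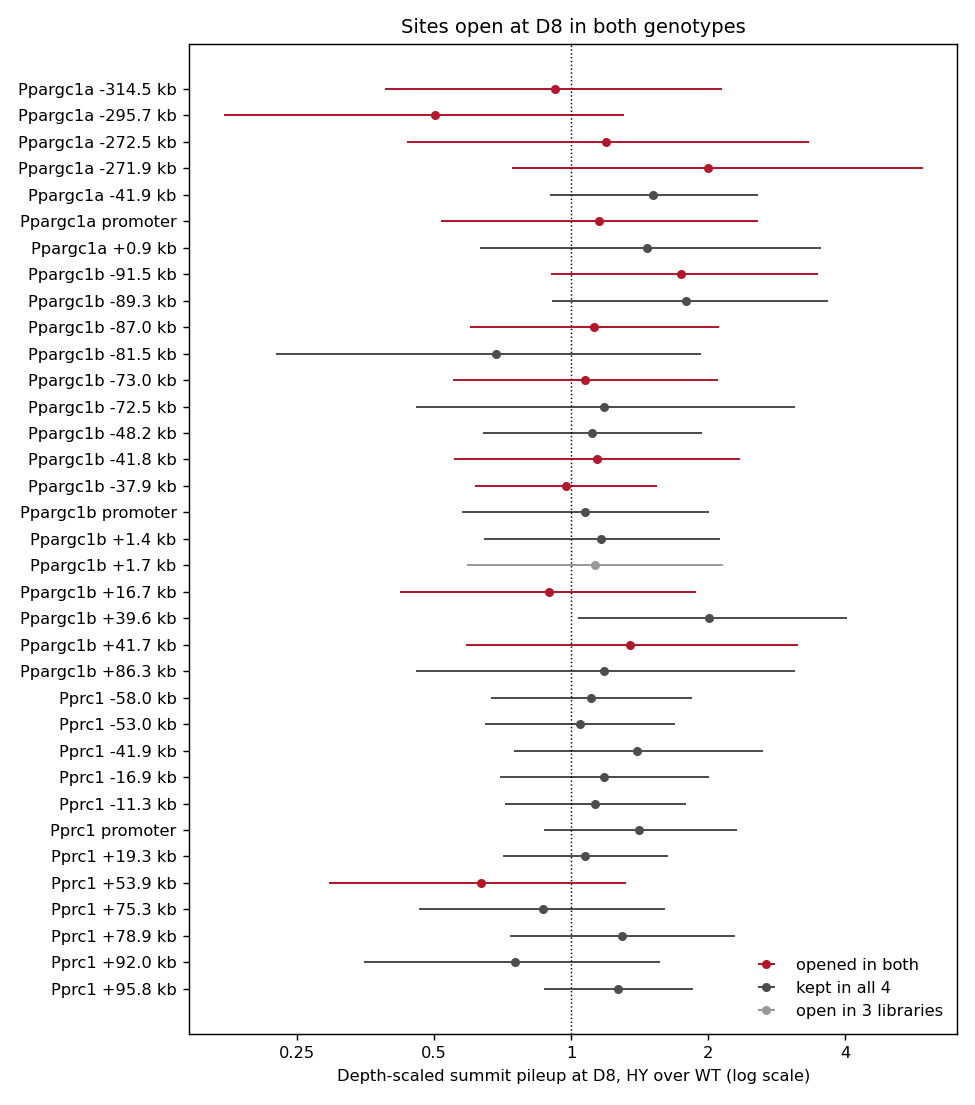
Ratio of the depth-scaled summit pileup in HY to that in WT at D8 (log axis) at the 35 sites open at D8 in both genotypes, coloured by class, with exact conditional binomial 95% intervals. All intervals include 1 except that of Ppargc1b +39.6 kb, which starts at 1.04.

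At D0, 33 sites were called in both genotypes. Only Ppargc1a +36.0 kb, with 5 tags in WT and 16 in HY, was at least 2 times higher in HY (2.98, interval 1.04 to 10.4), with 2.23% of 57846 over all sites, and 0 were at most 0.5 times, with 1.41% over all sites. That intronic site had no peak at D8 in either genotype. Without depth scaling the intergenic site at Ppargc1a -41.9 kb, with 13 tags in WT and 26 in HY, also reached a ratio of 2.

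Sites open at D8 in 1 genotype and in neither library of the other had from 5 to 16 tags at D8. Sites open at D8 in WT and in neither HY library were 5 of 72 with 2.53% over all sites, and sites open at D8 in HY and in neither WT library were 8 of 72 with 5.86% over all sites. In WT these were Ppargc1a -245.8 kb with 7 tags, Ppargc1b -47.3, +2.3 and +68.4 kb with 16, 16 and 12 tags, and Pprc1 +52.1 kb with 10 tags. In HY they were Ppargc1a -246.1, +8.0 and +278.2 kb with 8, 6 and 5 tags, Ppargc1b -92.4, -57.5 and +79.2 kb with 15, 8 and 8 tags, Pprc1 +54.2 kb with 9 tags and Ppargc1b +57.9 kb, which was open in HY on both days with 8 tags at D0 and 10 at D8. The other sites called at D8 in WT but not HY were also called in HY D0. The tallest was the intronic Ppargc1b +5.4 kb, with 28 tags in WT D0, 19 in WT D8 and 38 in HY D0, and Ppargc1b -98.1 kb, Ppargc1a -37.7 kb and Pprc1 +30.015 kb had 8, 8 and 10 tags in WT D8. Several of the sites restricted to 1 genotype lay near another site. Ppargc1a -245.8 kb in WT and -246.1 kb in HY are adjacent. Ppargc1b -47.3 kb lies near the -48.2 kb site, open in all libraries, and -92.4 kb near the -91.5 kb site, opened in both genotypes.

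The study predicted 6 distal enhancers of these genes, 3 upstream of Pgc1a and 3 upstream of Pgc1b, and assayed all but 1 of them by ChIP-qPCR. It predicted them by combining published ChIP-seq of histone marks with its ATAC-seq of beige cells, the data used here. A D8 peak at each was therefore largely given in advance. The amplicons lay at -314.2, -272.6 and -41.9 kb of Pgc1a and at -48.3 and -37.6 kb of Pgc1b, and the remaining Pgc1b enhancer was placed by its stated distance of -73 kb. A peak overlapped the primer amplicon, or the stated distance for -73 kb, within 500 bp on each side for 3 enhancers in each D0 library and 6 in each D8 library. The enhancers already called at D0 were those at -41.9 kb of Pgc1a and at -48.3 and -73 kb of Pgc1b. At the last of these the D0 peak was the neighbouring site at -72.5 kb, and the site at -72.97 kb itself was called at D8 alone. The most distal Pgc1a amplicon, at chr5:52259325-52259383, was not covered by the peak, whose summit lay 268 bp away in WT D8 and 291 bp away in HY D8. The other Pgc1a amplicons (chr5:52217673-52217758 and chr5:51986967-51987094) and both Pgc1b amplicons were covered by a D8 peak in both genotypes.

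Motif matches within 100 bp of the summits were counted by gene, as a description. The C/EBP letters were found in 7 of 23 sites at Ppargc1a, 3 of 32 at Ppargc1b and 2 of 17 at Pprc1, those of EBF in 2, 7 and 2, the receptor hexamer in 5, 7 and 1, and those of AP-1 in 6, 7 and 1. The EBF letters were in 15.3% of the 72 sites and 9.76% of all sites, and the hexamer in 18.1% and 13.7%. The CRE was found in 3 of 23 Ppargc1a sites, the opened promoter, the opened -314.5 kb site and the -157.0 kb site called in HY D0 alone, and in 0 of 32 and 0 of 17 sites at Ppargc1b and Pprc1. Over the genome it was found in 0.691% of all sites and in 8 of 6031 opened sites (0.133%), which include these 2. The C/EBP letters were found in 5 of 13 opened sites of the family, against 27.0% of all opened sites and 11.4% of all sites, and these were Ppargc1a -295.7 and -272.5 kb and Ppargc1b -91.5, -37.9 and +16.7 kb. The AP-1 letters were in 4 of 10 closed sites and 1 of 13 opened ones, and in 22.0% of all sites and 7.06% of opened sites. The NRF1, NFI and DR1 letters were found at none of the 72 sites, and those of estrogen-related receptors at 1, Ppargc1b +86.3 kb. Over all sites these were in 0.223%, 0.0398%, 0.0278% and 0.278%, rates at which 72 sites are too few to read an absence from.

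Genes of the PGC-1 pathway were read from a list of 40, and a site opened in both genotypes lay within 50 kb of the TSS of 16 of them (40%), with 25.6% of all protein-coding genes. A site closed in both genotypes lay that near to 27 (67.5%), with 63.2% of all genes. Opened sites were near 8 of 16 transcription factor partners, 3 of 12 regulators of PGC-1 activity and 5 of 12 targets. Ppara, a nuclear receptor for fatty acid oxidation, had 5 opened sites, Pparg, Rxra and Prdm16 3 each, the mitochondrial transcription factor gene Tfb2m and the complex I gene Ndufs8 4 each, and Ucp1 3. Promoters were open in all 4 libraries for 34 of the 40 genes and in none for Esrrb, Esrrg, Ucp1 and Fndc5. The matching shares over all protein-coding genes were not counted. The promoter of Cpt1b, which encodes the muscle and brown fat form of carnitine palmitoyltransferase 1, opened in both genotypes, with 27 tags in WT D8 and 18 in HY D8. That of Mef2c had 22 tags in WT D0, 9 in WT D8 and 15 in HY D0 and no peak in HY D8. The Pparg promoter, at the adipogenic regulator, had 17 tags at D0 and 37 at D8 in WT, and 12 at D0 and 39 at D8 in HY.

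For each member, the genes over 1 Mb away with the most similar summed pileup within 50 kb in the 4 libraries were named. Likeness was the distance between vectors of log2 of 1 plus the depth-scaled sum. For Ppargc1b, whose sums were 128 at D0 and 297 at D8 in WT, and 177 at D0 and 304 at D8 in HY, they were Phf17 (distance 0.200), Myst2 (0.239) and Retn (0.262), the last encoding the adipocyte hormone resistin. For Ppargc1a, with sums of 46.3, 75.5, 75.2 and 89.5, they were Zdhhc14 (0.0985) and the adjacent Cd1d1 and Cd1d2 (0.109 each). For Pprc1, with 216, 257, 218 and 254, they were Smo (0.105), Lrrc51 (0.114) and Gpr30 (0.121).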

How the data were processed

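ATAC-seq libraries were made from im-scWAT cells with a commercial kit, 1 per group. The authors trimmed and filtered reads, mapped them to mm9, removed PCR duplicates and called peaks in each library alone with MACS3, and their notes also name Bowtie2, SAMtools, Picard and deepTools. Versions, the calling threshold and any shift of read ends for Tn5 are not given in the sources used here, and an unshifted end moves a summit by a few bases. Deposited per peak were the fold of the summit pileup over local background, -log10 p and -log10 q, and a rescaled score, which was not used. The fold is a ratio with 1 tag added to both parts, so where background is low its size and direction depend on that tag. Nothing was normalised between libraries.

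The whole-number summit pileup and the local background were solved from the fold and -log10 p of each peak, within 0.002 for 100% of peaks (Python 3.11.15, SciPy 1.17.1, checked on simulated data). The lowest background of a list was taken as its relative depth, and absolute depth is unknown. Peaks overlapping by 1 bp or more formed a site, and each library's own strongest summit in the site was used. Genes came from the GENCODE annotation of NCBIM37 (mm9), with 1 TSS per gene, that of the longest coding sequence. The promoter window took 1000 bp before and 100 bp after each annotated start. Ratios of depth-scaled pileup carry 95% exact conditional binomial intervals. With 1 library per group no test across libraries was made. An additive fit of day and genotype would leave 1 residual degree of freedom and count any difference between the genotypes in the effect of day as error. Named sites were the promoters, the enhancers of the study and up to 5 sites per gene and class with the highest -log10 q in the weakest library, and other sites named were chosen after their values were seen. Primers were matched to the reference to place the enhancers, except Pgc1b -73 kb, placed by distance. Of the marker genes Adgre1 was not matched in the annotation. The members and all gene and motif lists were chosen with earlier results of these data known. Alternatives were peak strength, list length, distance, overlap, scaling and motif window.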

Additional observations from a re-analysis of the deposited data

Results flagged for a closer look

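At 5 of the 21 sites open in all 4 libraries the ratio of summit height at D8 to that at D0 lay on opposite sides of 1 in the genotypes. The difference between the genotypes was not tested, since each had 1 library per day. At Ppargc1b -89.3 kb the ratio was 0.716 in WT (26 to 15 tags) and 1.79 in HY (20 to 25 tags), with intervals of 0.353 to 1.40 and 0.955 to 3.40 that overlap. On the fold over local background both lay below 1 there, at 0.312 in WT and 0.671 in HY. The ratio of summit height was 0.975 in WT and 1.02 in HY at Ppargc1a +0.9 kb, 0.846 and 1.24 at Pprc1 -16.9 kb, an Ldb1 promoter, 0.997 and 1.299 at Pprc1 +19.3 kb, the Nolc1 promoter, and 1.001 and 0.999 at Pprc1 +78.9 kb, in an exon of Elovl3. Both intervals included 1 at each of these 4 sites, and ratios this close to 1 have no firm side. On the fold over local background the ratios in WT and HY were 0.710 and 0.625 at Ppargc1a +0.9 kb, and 0.665 and 0.710 at Pprc1 +78.9 kb. Both were above 1 at Pprc1 -16.9 kb, and of the 5 sites only Pprc1 +19.3 kb kept them on opposite sides of 1.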

How the results depend on the processing

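Of the values compared between settings, 86 counts stayed within 1.5 times and 55 did not, 24 of them with the window halved, which removes sites by construction, 11 with lists of equal length, 9 with a stricter -log10 q, 5 with 50% overlap, 4 with joined summits and 2 with a distance of 10 kb. In the halved windows the peaks in WT D0, WT D8, HY D0 and HY D8 were 5, 5, 9 and 4 at Ppargc1a, 8, 13, 11 and 11 at Ppargc1b and 5, 8, 6 and 6 at Pprc1. Opened sites were then 1, 4 and 0 at Ppargc1a, Ppargc1b and Pprc1, closed sites 2, 2 and 0, kept sites 4 at Ppargc1b and 5 at Pprc1, D8 sites of WT without HY 0 at Ppargc1a and 0 at Pprc1, and D8 sites of HY without WT 1, 0 and 0. With peaks of -log10 q of at least 5, Ppargc1a had 6 peaks in WT D0 and 6 in WT D8, 3 opened and 2 closed sites, Ppargc1b had 12 peaks in WT D0 and 12 in WT D8 and 4 kept sites, and Pprc1 had 0 closed sites and 0 sites restricted to either genotype at D8. With all lists cut to the shortest, Ppargc1a had 5 peaks in WT D0 and 6 in HY D0, 2 closed sites, 2 D8 sites of WT without HY and 1 of HY without WT. Ppargc1b had 9 peaks in WT D0 and 10 in HY D0, 2 closed and 5 kept sites, and Pprc1 0 closed sites. Pathway genes near a closed site fell to 17 with equal lists, and within 10 kb to 10, with 7 near an opened site. A required overlap of 50% gave 3 opened sites and 3 D8 sites of WT without HY at Ppargc1a, 7 closed and 5 such WT sites at Ppargc1b and 3 closed sites at Pprc1. Joining summits within 250 bp gave 2 such WT sites at Ppargc1a and 2 opened, 2 WT and 2 HY sites at Pprc1. Opened sites of Ppargc1b held within 1.5 times of 7 in every setting but the halved window.

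Of 352 single-site ratios and motif counts, 338 stayed within the interval or 1.5 times. The D8 to D0 ratio of Ppargc1a -41.9 kb in HY was 0.895 as a fold over local background, the only ratio of at least 2 or at most 0.5 that turned. Ratios nearer to 1 also crossed it on that scale, among them Ppargc1b -89.3 kb in HY, at 0.671 (0.312 in WT), and the Ppargc1b promoter, at 0.854 in WT and 0.576 in HY. Without depth scaling only Pprc1 +95.8 kb in HY left its interval (0.783), but the D8 to D0 ratios of Ppargc1a -41.9 kb in HY (1.46), Ppargc1b -72.5 kb in WT (1.67) and Ppargc1b +1.7 kb in HY (1.83) fell below 2. That of Pprc1 +92.0 kb in HY (0.483) fell below 0.5. With the median ratio of shared sites set to 1, Ppargc1b -89.3 and +57.9 kb in HY rose past 2, to 2.02 each. A motif window of 250 bp raised sites with C/EBP letters from 12 to 22, EBF from 11 to 19, receptor hexamers from 13 to 28 and ETS from 2 to 5. Under the wider promoter window the promoters of all 3 genes were open in every library, against 2 at D0 in the narrower one.

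No paired analysis was made, since the labels carry no replicate numbers. The D0 and D8 libraries of each line form 2 pairs, whose D8 to D0 ratios are given side by side without a test. Nor was any library left out, with 1 in each group. The number of tags is unknown, summits of 5 to 10 tags were near the calling limit, and a site without a peak is one below that limit, not one shown to be closed. The limit was higher where local background was raised. At Ppargc1b +2.3 kb in WT D8, 16 tags on a background of 5.21 had a -log10 q of 2.05. A summit of more than 10 tags could thus go uncalled near the Ppargc1b promoter.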
